A study of Homo sapiens with 24 samples.

Results

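The genes followed here encode the hnRNP proteins and the SR proteins, the 2 large families of RNA-binding proteins that set which exons are kept when pre-mRNA is spliced. They were chosen by name alone: every protein-coding gene whose symbol is HNRNP or SRSF followed only by letters and digits, or by digits. The rule gave 38 of the 60230 genes in the expression tables, 26 hnRNP and 12 SR. Enough counts for a test were present for 33 of them, 22 hnRNP and 11 SR. The genes left out were SRSF12, with 0 to 6 counts a tumor, and HNRNPCL1, HNRNPCL2, HNRNPCL3 and HNRNPCL4, copies of HNRNPC listed at 0 in all 24 tumors.

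The tissue was tumor grown in mice from AsPC-1, an established human pancreatic ductal adenocarcinoma cell line, so the series is a model of 1 cell line. Each mouse was dosed by mouth 3 times on alternate days, with IK-595 at 6 mg/kg or with the vehicle of 5% DMSO and 95% PEG400. IK-595 is a compound that holds MEK and RAF kinases together in an inactive complex. Treated tumors were collected 2, 4, 8, 24 or 48 h past the final dose, while the vehicle group was collected at 2 h alone, and each of the 6 groups held 4 animals. Every treated group is therefore compared with vehicle tumors of 2 h, and time after dosing without drug was not measured. The time field of the treated samples speaks of the vehicle dose, while their titles name the last IK-595 dose, which is followed here.

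Between them, hnRNP and SR proteins coat a transcript soon after it is made. SR proteins mostly bind exons and recruit the splicing machinery through their arginine- and serine-rich tails, which kinases phosphorylate, while many hnRNP proteins bind silencer sequences and keep exons out. Many genes of both families control their own level through alternative exons that send the transcript to nonsense-mediated decay, and several family members are often raised in tumors.

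Libraries held 10.5 to 20.6 M counts each. Of 10 genes known as outputs of the MAPK pathway, the target of the drug, 8, 9, 10, 6 and 2 fell at 2, 4, 8, 24 and 48 h. The mitochondrial share of counts was 8.00 to 10.8% in vehicle tumors, 11.8 to 18.3% at 2 h, 7.36 to 15.4% at 4 h and 18.3 to 23.4% at 8 h. It was 12.1 to 31.4% at 24 h, with the highest value in tumor 1, and 11.6 to 12.8% at 48 h, so it moved with the counts of fallen genes below. With mitochondrial genes removed from the counts 9, 1, 15, 9 and 2 of the 33 genes fell in time order. Over all genes 2695, 1540, 4112, 2661 and 898 of 18320 fell in that fit. In 4 h tumor 2, the shallowest library at 10.5 M counts, 15 fibroblast and pericyte markers had a mean of 7.80 log2 CPM against 3.58 to 5.79 in the other tumors, and none of the 15 was at 0. Muscle, adipocyte and red cell markers were high in 2 h tumor 1, 4 h tumor 4, 8 h tumors 2 and 4 and 24 h tumor 4 (6.65 to 8.29 mean log2 CPM against 0.22 to 5.15 elsewhere). Fits without these tumors and a fit with the fibroblast markers as a covariate are given beside the counts they change, and the part of the muscle markers was not tested. In bulk tissue fewer cells of a type cannot be told apart from less RNA per cell.

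Start sites of 34 of the 38 genes matched the RefSeq promoter table (GRCh38.p14), with 48 promoters of 300 bases, 250 before the start and 50 after it. The shown windows are from a gene that fell, a gene that rose and a gene that was higher at 4 h than at 2 h, so that promoters of different courses can be set side by side. Capitals mark CCGGAAG, a core bound by ETS factors (which act below ERK), on either strand, in HNRNPF (chr10:43408808-43409107, minus strand) and SRSF5 (chr14:69766892-69767191, plus strand). In HNRNPM (chr19:8444725-8445024, plus strand) they mark CACGTG, the E-box bound by MYC and related factors.
HNRNPF: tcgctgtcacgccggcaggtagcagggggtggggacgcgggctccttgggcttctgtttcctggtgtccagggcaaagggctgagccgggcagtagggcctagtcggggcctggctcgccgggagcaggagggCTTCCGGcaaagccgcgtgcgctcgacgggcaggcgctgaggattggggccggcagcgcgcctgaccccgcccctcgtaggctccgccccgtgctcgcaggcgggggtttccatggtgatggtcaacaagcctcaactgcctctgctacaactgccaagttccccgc
SRSF5: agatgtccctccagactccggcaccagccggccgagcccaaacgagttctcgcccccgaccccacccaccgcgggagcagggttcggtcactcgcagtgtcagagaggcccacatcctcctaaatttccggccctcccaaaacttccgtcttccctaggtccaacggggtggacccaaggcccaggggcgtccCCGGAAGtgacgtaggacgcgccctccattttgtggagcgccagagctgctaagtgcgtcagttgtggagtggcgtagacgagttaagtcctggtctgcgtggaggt
HNRNPM: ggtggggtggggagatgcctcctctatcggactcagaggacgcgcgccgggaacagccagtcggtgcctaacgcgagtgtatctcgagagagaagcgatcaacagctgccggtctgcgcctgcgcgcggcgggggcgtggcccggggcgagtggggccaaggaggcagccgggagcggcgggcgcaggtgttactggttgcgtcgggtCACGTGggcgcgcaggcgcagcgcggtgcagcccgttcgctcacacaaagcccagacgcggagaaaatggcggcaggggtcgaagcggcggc
Of the 48 promoters of these genes, 5 held CCGGAAG (10.4%, against 10.3% of 35116 promoters in the table), 8 held CACGTG (16.7% against 7.26%) and 0 held the AP-1 letters TGACTCA (against 4.95%). CCGGAAG stood in HNRNPF, HNRNPLL, HNRNPD, SRSF4 and SRSF5, a set that includes genes that fell, 1 that rose and others that passed no test. CACGTG stood in HNRNPA3, HNRNPD, HNRNPDL, HNRNPH2, HNRNPH3, HNRNPM and HNRNPUL1. The motifs do not overlap each other, both strands were searched, and a match describes letters only.

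In vehicle tumors, TPM, a level per transcript length, placed HNRNPA1 first at 1050.5 ± 83.3 (SD, n = 4). HNRNPA2B1 followed at 513 ± 48.9 and HNRNPH1 at 465 ± 27.7, which overlapped within their spread. HNRNPK (367 ± 15.1) and HNRNPC (359 ± 23.7) also lay within each other's spread. The most abundant SR gene was SRSF5 at 295 ± 41.0, next to SRSF3 at 256 ± 17.1. The lowest tested genes were HNRNPA1L3 and HNRNPA1L2, intron-poor copies of HNRNPA1, at 9.44 ± 2.91 and 2.23 ± 1.76 TPM.

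After IK-595 many hnRNP transcripts were lower than in vehicle tumors at 2 h and more of them at 8 h, with 1 lower at 4 h between those times, or 6 of the 33 genes when fibroblast markers were a covariate. Among SR genes SRSF1, SRSF2, SRSF3 and SRSF9 fell and SRSF5, SRSF6 and SRSF11 rose at 1 or more times. A gene is called changed at a Benjamini-Hochberg adjusted p under 0.05 over the 18242 genes tested with edgeR on counts. At 2 h, 9 of the 33 genes fell and 2 rose, where 13.6% of all genes fell and 13.4% rose. At 4 h only HNRNPA1 fell and none rose (8.39% and 6.74% of all genes, with 1 of the 33 higher when p is left unadjusted at 0.05, and 0 risen in DESeq2). At 8 h 17 fell and 2 rose, against 23.7% and 20.6% of all genes. By 24 h 8 fell and 3 rose (13.8% and 13.7%), and by 48 h 2 fell and 0 rose (4.46% and 5.52%, 0 higher when p is left unadjusted at 0.05 and 0 in DESeq2). In both directions together the share of all genes called was 26.9%, 15.1%, 44.3%, 27.5% and 9.98% in time order. By calls on counts, fallen genes were thus a larger part of the 33 than of all genes at 2, 8 and 24 h. They were a smaller part at 4 h and near the background at 48 h, and risen genes were a smaller part at all 5 times. With the trend of GC content removed, described below, both 24 h shares stood near those of all genes. Over the 6 groups 17 of the 33 differed in edgeR's test of any difference, against 49.8% of all genes, so by that test they stood near the background.

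Several of these counts moved when 1 tumor was left out, often whichever of several tumors it was. HNRNPUL1 at 2 h was lost in 7 of 8 such fits, at log2 fold changes of -0.49 to -0.41. The SRSF6 rise at 24 h was lost in 1 of 8, without 24 h tumor 1. At 2 h 4 genes fell without vehicle tumors 1 or 2 or 2 h tumor 3 and 5 without 2 h tumors 2 or 4, and 1 rose without vehicle tumors 1 or 2 or 2 h tumors 2 or 4. At 24 h 4 fell without vehicle tumors 1, 2 or 4 and 3 without 24 h tumors 1 or 4, while 1 rose without vehicle tumors 1 or 2 and 0 without 24 h tumor 1. The 8 h fallen count stayed between 12 and 16. Without both 4 h tumor 2 and 24 h tumor 1, the fallen and risen counts were 14 and 4, 3 and 0, 19 and 4, 7 and 2, and 5 and 0 in time order. With fibroblast markers as a covariate 14, 6, 19, 17 and 3 genes fell and 2, 0, 2, 3 and 0 rose. Over all genes, 3165, 1707, 4802, 2178 and 1158 of 18572 fell without that pair of tumors and 3039, 1370, 4235, 2138 and 1395 rose. With the covariate 3011, 1811, 4774, 3204 and 939 of 18242 fell and 3050, 1685, 4434, 3274 and 1110 rose. The main fit had 2477, 1531, 4328, 2518 and 814 fallen and 2438, 1230, 3755, 2493 and 1007 risen. These were fewer than with the covariate at all 5 times. They were more than without the pair at 24 h and fewer at the other times.

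Counting tumors in place of a test, the treated group was entirely below the vehicle group for 13 genes (2 h; 16.9% of all genes), 3 (4 h; 11.5%), 19 (8 h; 23.8%), 9 (24 h; 13.5%) and 12 (48 h; 9.26%). It was entirely above for 5 (15.6%), 0 (7.93%), 3 (20.4%), 2 (11.8%) and 0 (10.2%) genes in the same order.

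Each family is given by its own counts, and the difference between families was not tested. In edgeR no tested hnRNP gene rose against vehicle (0 of 22 at each time, 0 when p is left unadjusted at 0.05 and 0 in DESeq2), while 7, 1, 13, 6 and 2 of the 22 fell in time order. Over all genes 13.4%, 6.74%, 20.6%, 13.7% and 5.52% rose and 13.6%, 8.39%, 23.7%, 13.8% and 4.46% fell. The median log2 fold change of the hnRNP genes was -0.31, -0.01, -0.45, -0.33 and -0.21 in time order, beside medians of all genes between -0.01 and 0.07. The 11 SR genes had medians between -0.09 and -0.02 at every time, with 2 risen and 2 fallen at 2 h, 2 and 4 at 8 h, and 3 and 2 at 24 h. With 11 genes, 1 call more or fewer moves the SR share widely, so these counts are not set apart from the shares of all genes. Over the whole course 20 of the 33 genes were called at 1 or more times and 13 at none. In edgeR on counts all 9 genes that fell at 2 h also fell at 8 h, 7 fell at 2, 8 and 24 h, and SRSF5 and SRSF11 rose at those 3 times. These comparisons share the same vehicle tumors, so agreement between times is partly built in. The share of all genes with such repeated calls was not computed, so these counts do not show that the members held their change more than other genes.

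**Figure D1:**
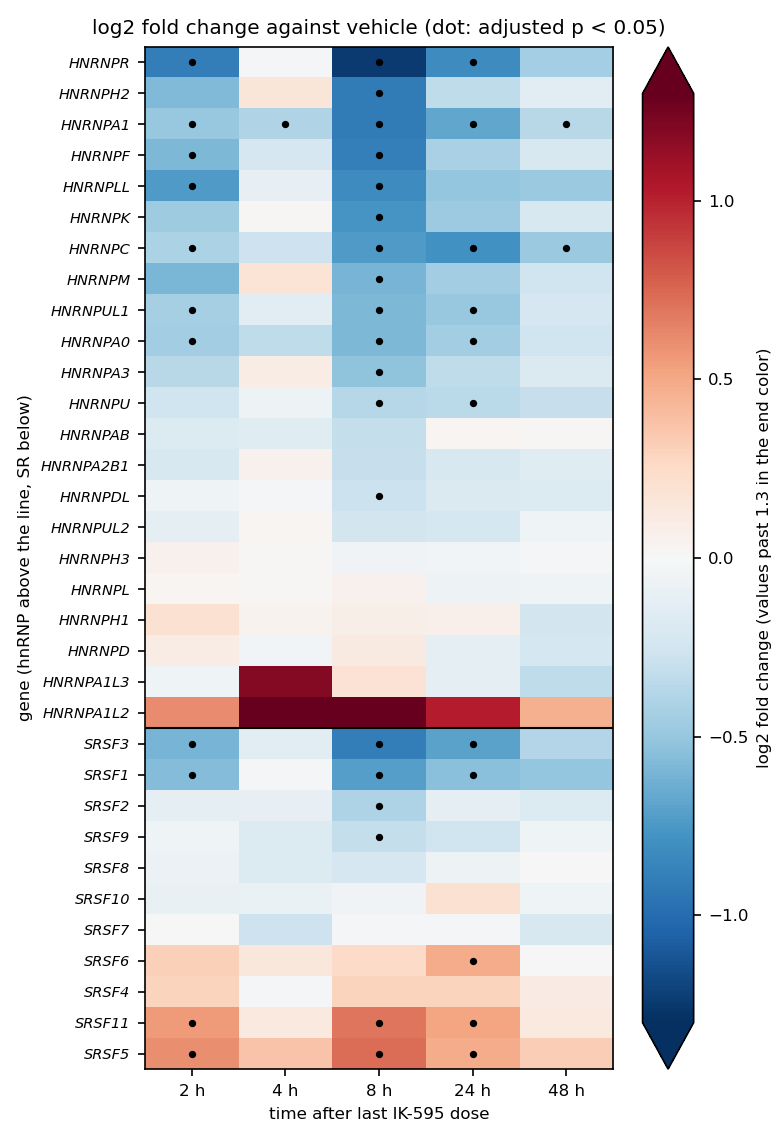
Color gives the log2 fold change of each of the 33 tested genes (rows, ordered within family by the 8 h value) at each time against the 4 vehicle tumors, from edgeR on counts. A dot marks an adjusted p under 0.05, and the columns of 2 h (9 fallen, 2 risen) and 8 h (17 fallen, 2 risen) stand beside 24 h (8 fallen, 3 risen), with 1 at 4 h and 2 at 48 h.

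The A/B group of hnRNP proteins, known as exon-skipping repressors, was led by HNRNPA1 (ENSG00000135486.19, chr12:54280193-54287088, plus strand, GRCh38). In edgeR on counts it was the only gene of the 33 called at all 5 times. In CPM (the count as a share of the TMM-scaled library), it stood at 1132, 1011, 1065 and 1091 in the vehicle tumors, 795, 764, 749 and 756 at 2 h and 794, 847, 809 and 821 at 4 h. It stood at 617, 593, 497 and 589 at 8 h, 599, 689, 749.6 and 659 at 24 h and 851, 782, 889 and 815 at 48 h. None of the 20 treated tumors reached the lowest vehicle tumor, and the lowest value was that of 8 h tumor 3. The log2 fold change was -0.49 (SE 0.10, adjusted p = 0.0011) at 2 h, -0.39 (SE 0.10, adjusted p = 0.0067) at 4 h and -0.91 (SE 0.10, adjusted p = 3.2e-07) at 8 h, the last a 1.87-fold lower level. It was -0.67 (SE 0.10, adjusted p = 4.2e-05) at 24 h and -0.37 (SE 0.10, adjusted p = 0.017) at 48 h. The 4 h call was lost without vehicle tumor 1 and the 48 h call without vehicle tumors 1 or 4 or 48 h tumors 2 or 4, with log2 fold changes of -0.40 to -0.34 and -0.39 to -0.33 over the 8 fits that each leave out 1 tumor. Of 14 other settings the 4 h call was kept in 10, lost in 3 of the 4 fits on TPM and with only the 2 groups fitted. The 48 h call was kept in 8, lost on TPM, without a count filter and with the GC trend removed, at -0.27 (adjusted p = 0.056). Reads of HNRNPA1 are shared with 74 annotated pseudogenes, which together held 1.07 to 6.74% as many counts as HNRNPA1 in 23 tumors and 15.3% in 4 h tumor 2, so its level is uncertain by about that much.

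HNRNPA2B1, a close relative that binds UAG-containing RNA, passed no test against vehicle. It stood at 1363, 1240.3, 1087 and 1252 CPM in vehicle tumors, 1162, 1729.6, 1048 and 1203 at 4 h and 992, 1030.5, 934 and 1065 at 8 h. The 8 h tumors lay below all vehicle tumors, but the log2 fold change there was -0.30 (SE 0.14, adjusted p = 0.08). HNRNPA3 (573, 569, 483 and 553 CPM in vehicle tumors against 379.6, 403, 329 and 406 at 8 h) fell at 8 h by 0.52 on the log2 scale (adjusted p = 0.031), a call lost without vehicle tumors 1, 2 or 4 or 8 h tumors 1 or 3 (-0.57 to -0.46). HNRNPA0, whose gene has a single annotated transcript, fell at 2 h (-0.46, SE 0.15, adjusted p = 0.031), 8 h (-0.58, SE 0.15, adjusted p = 0.0039) and 24 h (-0.45, SE 0.15, adjusted p = 0.031). Its 2 h call was lost without vehicle tumors 1, 2 or 4 or 2 h tumors 1, 3 or 4 (-0.49 to -0.42) and its 24 h call without vehicle tumors 1, 2, 3 or 4 or 24 h tumors 1 or 4 (-0.56 to -0.30). The HNRNPA3 call at 8 h and the HNRNPA0 call at 24 h were lost in every fit on TPM. HNRNPAB passed at no time (log2 fold changes from -0.30 to 0.03). The copies HNRNPA1L2 and HNRNPA1L3 had SEs of 0.60 to 0.79, too wide to place them, and share reads with HNRNPA1.

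HNRNPC (ENSG00000092199.18, chr14:21209136-21269494, minus strand), which binds uridine tracts in nascent RNA, was lower in every treated group. Its CPM was 390.1, 391, 364 and 350.3 in vehicle tumors, 269, 289, 259 and 307 at 2 h and 289, 337, 302 and 315 at 4 h. At 8 h it was 243, 246, 183 and 222, at 24 h 183, 214, 261 and 206 and at 48 h 261, 268, 279 and 259. As for HNRNPA1, no treated tumor reached the lowest vehicle tumor. The log2 fold change was -0.41 (SE 0.11, adjusted p = 0.01) after 2 h and -0.74 (SE 0.11, adjusted p = 2.1e-05) after 8 h. It was -0.79 (SE 0.11, adjusted p = 3.8e-05) for the 24 h group, -0.49 (SE 0.11, adjusted p = 0.0068) for the 48 h group and -0.27 (SE 0.11, adjusted p = 0.11), not called, for the 4 h group. These 4 calls held in every fit that left out 1 tumor, and the 48 h call was lost on TPM.

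On counts HNRNPR had the largest falls at 2 h and 8 h (ENSG00000125944.21, chr1:23303771-23344336, minus strand), a relative of SYNCRIP. Its CPM was 165, 156, 127 and 137 in vehicle tumors, 98.7, 70.6, 69.8 and 74.6 at 2 h and 103, 199.6, 123 and 150.3 at 4 h. At 8 h it was 68.0, 70.1, 41.2 and 67.3, and 24 h and 48 h tumors read 48.7, 85.6, 128 and 68.3, and 124, 95.5, 122 and 89.1. All tumors of 2 h and 8 h lay below all vehicle tumors, whereas 4 h tumor 2, the tumor with high fibroblast markers, lay above them, 4 h tumor 4 within their range and 4 h tumors 1 and 3 below it. The log2 fold change was -0.90 (SE 0.24, adjusted p = 0.0084) at 2 h, -0.02 (SE 0.24, adjusted p = 0.96) at 4 h and -1.25 (SE 0.24, adjusted p = 2.7e-04) at 8 h, a 2.37-fold lower level. At 24 h it was -0.82 (SE 0.24, adjusted p = 0.013), a call lost without 24 h tumors 1 or 4 (-1.12 to -0.65), and at 48 h -0.44 (SE 0.24, adjusted p = 0.27). Between treated groups the gene was higher at 4 h than at 2 h by 0.88 (SE 0.24, adjusted p = 0.018) and lower at 8 h than at 4 h, at -1.22 (SE 0.24, adjusted p = 0.0019). Without 4 h tumor 2 and 24 h tumor 1 these steps were 0.68 (adjusted p = 0.031) and -1.03 (adjusted p = 0.0015), and the first was lost without 2 h tumors 2, 3 or 4 or 4 h tumor 2 (0.70 to 1.05).

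**Figure D2:**
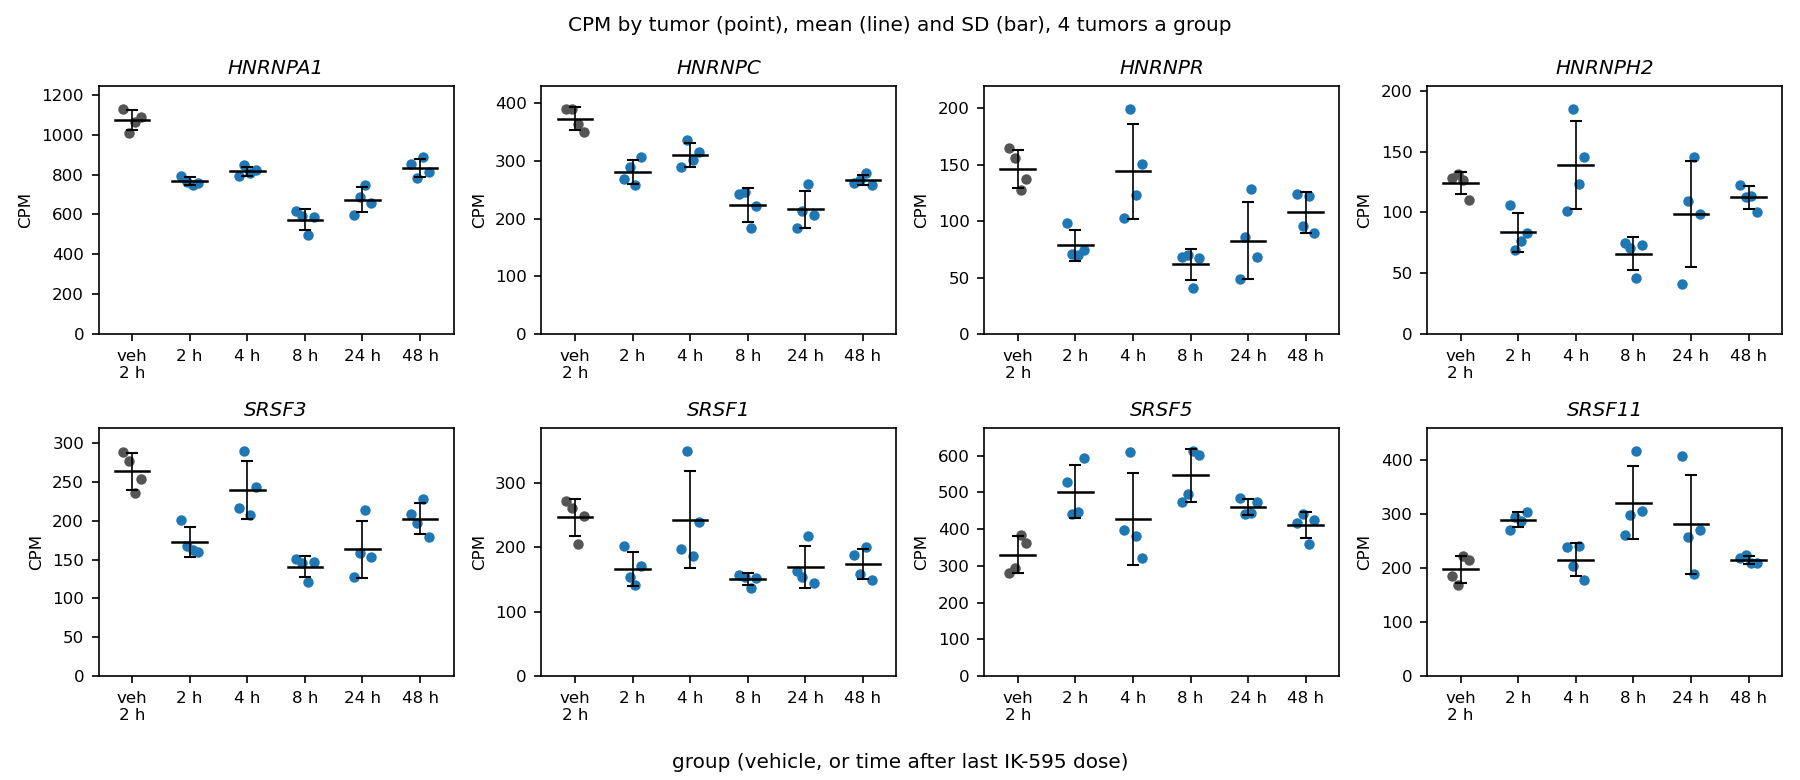
CPM (y axis, from 0) of 8 genes in each of the 24 tumors (points) by group (x axis), with the mean (line) and SD (bar) of 4 tumors. HNRNPA1 and HNRNPC were below every vehicle tumor at all 5 times, HNRNPR, SRSF3 and SRSF1 overlapped the vehicle range at 4 h, and SRSF5 and SRSF11 lay above every vehicle tumor at 2 h and 8 h.

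In the group that binds runs of guanines HNRNPF and HNRNPH2 fell, while HNRNPH1 and HNRNPH3 passed no test. HNRNPF fell at 2 h (-0.59, SE 0.20, adjusted p = 0.032) and at 8 h (-0.89, SE 0.20, adjusted p = 0.001). Its CPM was 375, 345, 282 and 322 in vehicle tumors against 274, 206, 197 and 205 at 2 h and 204, 181, 134 and 194 at 8 h, with no overlap at either time. The 2 h call was lost without vehicle tumors 1, 2 or 4 or 2 h tumors 2, 3 or 4 (-0.73 to -0.52). HNRNPH2, an X-linked gene with a single annotated transcript, stood at 128, 131, 127 and 111 CPM in vehicle tumors and 75.2, 70.5, 46.0 and 72.9 at 8 h, a log2 fold change of -0.91 (SE 0.25, adjusted p = 0.0056), and at 41.1, 109.7, 146 and 98.5 at 24 h, where the tumors spread from below to above the vehicle range (-0.33, SE 0.25, adjusted p = 0.34). HNRNPH1, its near-identical and more abundant paralog, stood at 525, 462, 499 and 510.3 CPM in vehicle tumors and 502, 491, 566 and 540.4 at 8 h. Its tumors lay above all vehicle tumors at 2 h and below all of them at 48 h and overlapped them at the other times, with log2 fold changes from -0.24 to 0.20 and no call at any time, and its 8 h value was 0.07 (SE 0.14, adjusted p = 0.69). HNRNPH3 was not called either (-0.04 to 0.06). Because HNRNPH1 and HNRNPH2 share coding sequence, the quantifier's split of reads between them is uncertain.

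HNRNPK, which binds cytosine-rich RNA through KH domains, stood at 634, 615, 569.6 and 578 CPM in vehicle tumors. It stood at 543, 385, 409 and 406 at 2 h, 471, 913, 472 and 558 at 4 h and 369, 374, 258 and 404 at 8 h. The 8 h tumors did not overlap vehicle, and the log2 fold change was -0.77 (SE 0.20, adjusted p = 0.0034), against -0.46 (SE 0.20, adjusted p = 0.089) at 2 h. HNRNPLL, a regulator of alternative splicing known from T cells, stood at 33.9, 38.0, 38.2 and 33.9 CPM in vehicle tumors, 28.6, 18.3, 17.1 and 22.3 at 2 h and 19.1, 22.4, 15.4 and 25.0 at 8 h. It fell at both times, with log2 fold changes of -0.74 (SE 0.24, adjusted p = 0.027) and -0.82 (SE 0.24, adjusted p = 0.0088), and the first call was lost without vehicle tumors 1, 2 or 3 or 2 h tumors 2, 3 or 4 (-0.92 to -0.64). Both HNRNPLL calls were lost in every fit on TPM. Its paralog HNRNPL, which like it binds CA repeats, stood at 244, 252, 212 and 249.7 CPM in vehicle tumors and 254, 259.9, 225 and 260.3 at 8 h. HNRNPL passed no test, with log2 fold changes between -0.07 and 0.06 over the 5 times and SEs of 0.11.

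HNRNPUL1, a relative of HNRNPU, fell at 2 h (-0.43, SE 0.15, adjusted p = 0.037), 8 h (-0.58, SE 0.15, adjusted p = 0.0032) and 24 h (-0.49, SE 0.15, adjusted p = 0.018), with the 2 h call lost without vehicle tumors 1, 2 or 4 or 2 h tumors 1, 2, 3 or 4 (-0.49 to -0.41) and the 24 h call without vehicle tumors 1, 2 or 4 or 24 h tumors 1 or 4 (-0.58 to -0.39). HNRNPU, a chromatin-associated RNA-binding protein, fell at 8 h (-0.37, SE 0.11, adjusted p = 0.011) and 24 h (-0.35, SE 0.11, adjusted p = 0.025), the latter call lost without vehicle tumors 1, 2 or 4 or 24 h tumors 1, 2 or 4 (-0.42 to -0.30). The HNRNPUL1 calls at 2 h and 24 h and the HNRNPU call at 24 h were lost in every fit on TPM. HNRNPM, known for splicing in epithelial-mesenchymal transition, fell at 8 h (-0.60, SE 0.25, adjusted p = 0.049), a call lost without vehicle tumors 1, 2, 3 or 4 or 8 h tumors 1, 3 or 4 (-0.70 to -0.47), and in DESeq2, with its scaling, with a stricter count filter, with a replicate block and without mitochondrial genes. HNRNPDL fell at 8 h (-0.28, SE 0.10, adjusted p = 0.031), a call lost without vehicle tumors 1, 2, 3 or 4 or 8 h tumors 1 or 2 (-0.30 to -0.25). HNRNPD, the AU-rich element binding protein AUF1, and HNRNPUL2 passed at no time (HNRNPD -0.22 to 0.12, HNRNPUL2 -0.24 to 0.03). A read-through transcript that joins HNRNPUL2 to its neighbor BSCL2 held 0.87 to 35.1% as many counts as HNRNPUL2, so the value of HNRNPUL2 depends on that split.

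Among SR genes, SRSF3 (ENSG00000112081.17, chr6:36594353-36605600, plus strand) and SRSF1 (ENSG00000136450.13, chr17:58003360-58007346, minus strand), the members best known for supporting growth of tumor cells, fell. SRSF3 stood at 289, 277, 236 and 254 CPM in vehicle tumors, 201, 168, 163 and 159.9 at 2 h and 216, 291, 208 and 243 at 4 h. It stood at 150.3, 146, 121 and 147 at 8 h, 127, 158, 214 and 153 at 24 h and 208, 197, 228 and 179 at 48 h. All tumors of 2, 8, 24 and 48 h lay below the vehicle tumors, and 4 h tumors overlapped them. The log2 fold change was -0.61 (SE 0.14, adjusted p = 0.0035) at 2 h, -0.90 (SE 0.14, adjusted p = 3.2e-05) at 8 h and -0.69 (SE 0.14, adjusted p = 0.0012) at 24 h, and not called at 4 h (-0.14, SE 0.14, adjusted p = 0.56) or 48 h (-0.38, SE 0.14, adjusted p = 0.098). The 3 calls held without any 1 tumor.

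SRSF1 stood at 271, 261, 206 and 248 CPM in vehicle tumors, 202, 154, 141 and 170.4 at 2 h and 157, 154, 136 and 153 at 8 h. It fell at 2 h (-0.56, SE 0.17, adjusted p = 0.02), 8 h (-0.72, SE 0.17, adjusted p = 0.0021) and 24 h (-0.54, SE 0.17, adjusted p = 0.024), with a value of -0.02 (SE 0.17, adjusted p = 0.95) at 4 h. The 8 h call held without any 1 tumor, the 2 h call was lost without vehicle tumors 1 or 2 or 2 h tumors 2 or 3 (-0.69 to -0.49) and the 24 h call without vehicle tumors 1, 2 or 4 or 24 h tumors 1, 2 or 4 (-0.69 to -0.47). SRSF2 and SRSF9 were called at 8 h alone, with log2 fold changes of -0.40 (SE 0.16, adjusted p = 0.045) and -0.31 (SE 0.10, adjusted p = 0.014). The SRSF2 call was lost without vehicle tumors 1, 2 or 4 or 8 h tumors 1, 2 or 3 (-0.46 to -0.34) and in 9 of 14 other settings, DESeq2, TPM and GC removal among them, and the SRSF9 call without vehicle tumors 2, 3 or 4 or 8 h tumor 3 (-0.36 to -0.26). HNRNPR, SRSF3 and SRSF1 were named for their calls at 3 times, and the last 2 lay outside the rule by which genes were chosen for full description.

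SRSF5 (ENSG00000100650.16, chr14:69726900-69772005, plus strand), an SR protein known as an early insulin- and growth-responsive gene, rose. It stood at 281, 294, 384 and 361 CPM in vehicle tumors, 527, 440.4, 447 and 593 at 2 h and 397, 610.3, 381 and 322 at 4 h. It stood at 474, 495, 614 and 602 at 8 h, 486, 440.0, 444 and 474 at 24 h and 418, 441, 359 and 426 at 48 h. Tumors of 2, 8 and 24 h lay above all vehicle tumors, and those of 4 h and 48 h overlapped them. The log2 fold change was 0.61 (SE 0.16, adjusted p = 0.0086) at 2 h, 0.73 (SE 0.16, adjusted p = 9.8e-04) at 8 h and 0.48 (SE 0.16, adjusted p = 0.03) at 24 h, the last lost without vehicle tumors 1 or 2 or 24 h tumors 1 or 4 (0.41 to 0.56).

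SRSF11 (ENSG00000116754.13, chr1:70205682-70253052, plus strand), an SR protein that helps U2AF at 3' splice sites, stood at 185, 169, 223 and 214 CPM in vehicle tumors, 271, 295, 287 and 304 at 2 h and 239.8, 204, 242 and 178 at 4 h. It stood at 262, 299, 418 and 306 at 8 h and 409, 259, 189 and 271 at 24 h. Values at 2 h and 8 h lay above all vehicle tumors, while at 24 h tumor 1, with 31.4% mitochondrial counts, was high and tumor 3 was inside the vehicle range. The gene rose at 2 h (0.55, SE 0.17, adjusted p = 0.023), 8 h (0.70, SE 0.17, adjusted p = 0.0026) and 24 h (0.51, SE 0.17, adjusted p = 0.032). The 2 h call was lost without vehicle tumors 1 or 2 or 2 h tumors 2 or 4 (0.48 to 0.60) and the 24 h call without vehicle tumors 1 or 2 or 24 h tumor 1 (0.27 to 0.65). Of 14 other settings these 2 calls were kept in 9 and 7. Both were lost in every fit on TPM, with or without mitochondrial genes.

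SRSF6 and SRSF4 are close relatives of SRSF5. SRSF6 stood at 279, 252, 273 and 255 CPM in vehicle tumors and 502, 321, 314 and 339 at 24 h, with tumor 1 far above the rest. Its 24 h rise of 0.48 (SE 0.13, adjusted p = 0.0099) was lost without 24 h tumor 1, at 0.28, as was its fall from 24 h to 48 h (-0.47, SE 0.13, adjusted p = 0.046, -0.28 without that tumor, and called in 2 of 8 fits that leave out 1 tumor). SRSF4 (125, 123, 130.2 and 128 CPM in vehicle tumors and 139, 157, 161 and 159 at 8 h) lay above all vehicle tumors at 2 h and 8 h without passing (0.29, SE 0.13, adjusted p = 0.096 and 0.28 (SE 0.13, adjusted p = 0.077)). SRSF7, SRSF8 and SRSF10 passed at no time, with log2 fold changes from -0.27 to 0.20, and at 8 h these were -0.02, -0.22 and -0.05.

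Steps from each time to the next were tested directly between treated groups, which hold different tumors. From 2 h to 4 h 5 genes rose (HNRNPR, HNRNPM, HNRNPH2, SRSF1 and SRSF3) and 0 fell, against 6.89% and 9% of all genes (15.9% in either direction). Without overlap between the groups, 2 genes were higher (8.84% of all genes) and 2 lower (10.2%) at 4 h. None of the 5 calls held in every fit that left out 1 tumor, and the count was 0 without 2 h tumors 2, 3 or 4 or 4 h tumor 2, 1 without 4 h tumor 4 and 9 without 2 h tumor 1. It was also 0 with fibroblast markers as a covariate. From 4 h to 8 h 13 genes fell and SRSF11 rose, against 15.5% and 11.6% (27.1% in either direction), and 10 were lower (15.2%) and 2 higher (12.2%) without overlap. HNRNPA1 (-0.51), HNRNPC (-0.47), HNRNPH2 (-1.07), HNRNPR (-1.22), SRSF1 (-0.69) and SRSF3 (-0.76) kept that fall in all 8 fits that leave out 1 tumor. The 13 became 6 without 4 h tumor 2, the tumor with high fibroblast markers, and 7 without 8 h tumor 3, and the rise of SRSF11 was lost without 4 h tumor 4 or 8 h tumor 3. From 8 h to 24 h 0 genes changed in edgeR and 1 was higher (5.82%) and 0 lower (3.95%) without overlap (5.3% of all genes rose and 1.58% fell, and 5 of the 33 had an unadjusted p under 0.05), and without 24 h tumor 1 the count of risen genes was 3. From 24 h to 48 h SRSF6 alone fell (1.6% of all genes) and 0 rose (2.47%, 2 in DESeq2), with 2 lower (5.1%) and 1 higher (5.77%) without overlap.

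The transcripts here are poor in G and C: pooled over the annotated transcripts of each gene, the 33 genes had a median GC content of 44.1%. The median was 49.5% over 18004 genes, and 27 of the 33 lay below it. Across the 18004 genes the log2 fold change rose with GC (Spearman's rho 0.27, 0.01, 0.24, 0.23 and 0.26 in time order, across genes, which are not replicates). Within the 33 genes rho was smaller, at 0.11, -0.004, 0.09, 0.07 and 0.11. With the trend over all genes removed in each tumor, 2491 of 18242 genes fell and 2022 rose at 2 h. These counts were 4231 and 3479 at 8 h and 2885 and 2185 at 24 h. Of the 33 genes, 6 fell and 3 rose at 2 h, and 11 fell and 4 rose at 8 h, where SRSF4 and SRSF6 joined SRSF5 and SRSF11. At 24 h 6 fell and 4 rose, SRSF10 being the added one, so both shares then stood near those of all genes. From 2 h to 4 h 2 rose and 1 fell after that step (974 and 1024 of all 18242 genes). From 4 h to 8 h 4 rose and 9 fell (1479 and 2316 of all genes). The calls that ended at 8 h were those of HNRNPA0, HNRNPA3, HNRNPDL, HNRNPU, SRSF2 and SRSF9, and at 2 h those of HNRNPA0, HNRNPC and HNRNPLL. HNRNPA1 at 8 h was then -0.72 (adjusted p = 2.0e-06), HNRNPR -1.01 (adjusted p = 7.9e-04), HNRNPC -0.55 (adjusted p = 2.5e-04) and SRSF3 -0.67 (adjusted p = 2.0e-04), while SRSF5 was 0.91 (adjusted p = 1.9e-04) and SRSF11 0.94 (adjusted p = 5.5e-04).

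On the TPM scale the balance moved toward falls, as it did over all genes at 2 h and 8 h. In limma on log2(TPM + 1), 12 genes fell and 0 rose at 2 h and 20 fell and 0 rose at 8 h, against 9 and 2, and 17 and 2, on counts. At 24 h 5 fell and 1 rose there, against 8 and 3 on counts. Over all 18242 genes on counts, 2477 fell and 2438 rose at 2 h, 4328 and 3755 at 8 h, and 2518 and 2493 at 24 h. On the TPM scale these were 2805 and 1148, 5077 and 1888, and 2154 and 1325 of 17485 genes. That scale also moved the median of all genes, to -0.12, 0.03, -0.16, -0.06 and -0.07 in time order, and TPM is a share of a total that includes the mitochondrial transcripts. SRSF5 at 8 h was 0.41 (SE 0.18, adjusted p = 0.073) and SRSF11 0.14 (SE 0.16, adjusted p = 0.53) there, so neither rise was called, whereas HNRNPA1 was -1.32 (SE 0.18, adjusted p = 9.7e-06) and HNRNPR -1.32 (SE 0.25, adjusted p = 3.6e-04). With TPM rescaled over genes other than mitochondrial ones, an alternative added after the data were seen, SRSF5 was 0.78 (SE 0.15, adjusted p = 3.3e-04) and SRSF11 0.50 (SE 0.18, adjusted p = 0.034). There 5 of the 33 genes rose at 8 h and 1 at 2 h, beside 3705 and 1760 of 19098 genes. The summed level of the 26 hnRNP genes was 4816 ± 180.1 TPM in vehicle tumors (SD, n = 4), and 3369.7 ± 484, 4622 ± 894, 2809.8 ± 352, 3529 ± 832 and 3835 ± 424 in the treated groups in time order. For the 12 SR genes the sums were 1611 ± 41.2, 1398 ± 204, 1706 ± 303, 1325 ± 71.3, 1511 ± 214 and 1453 ± 117 TPM. As a share of all counts the SR genes went from 0.219% ± 0.0097 in vehicle tumors to 0.227% ± 0.019, 0.230% ± 0.023, 0.230% ± 0.013, 0.234% ± 0.012 and 0.201% ± 0.0054, higher on average than vehicle in the first 4 treated groups where the TPM sums were lower in 3 of those 4. The share of the hnRNP genes went from 0.756% ± 0.046 to 0.606% ± 0.069, 0.749% ± 0.13, 0.554% ± 0.051, 0.602% ± 0.078 and 0.618% ± 0.039.

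**Figure D3:**
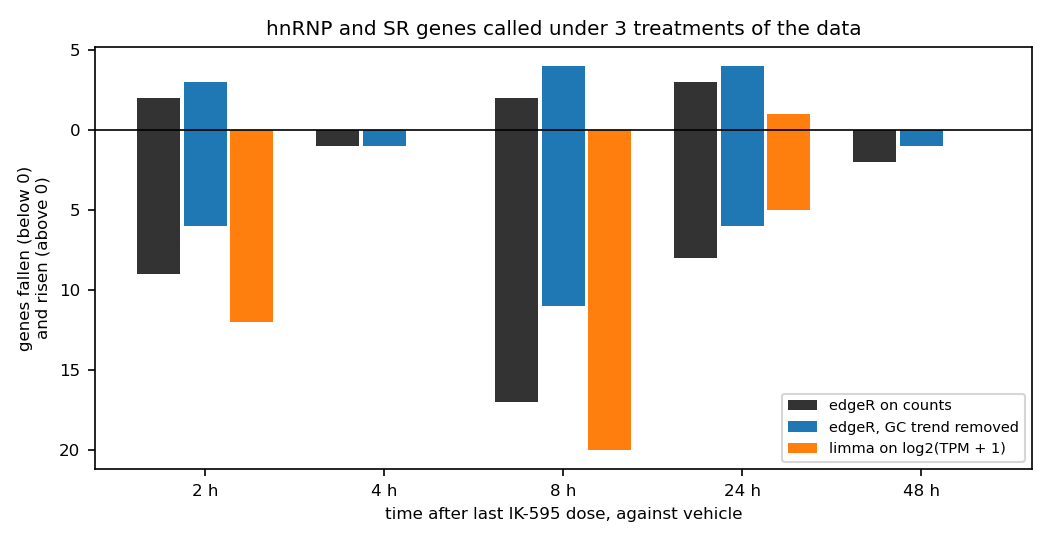
Bars count the genes called as risen (above 0) and fallen (below 0) against vehicle (y axis) at each time (x axis) from counts, from counts with the GC trend removed and from TPM. Falls at 8 h numbered 17, 11 and 20, and rises 2, 4 and 0. Over all genes falls at 8 h numbered 4328 and 4231 of 18242 and, on TPM, 5077 of 17485. Rises over all genes numbered 3755, 3479 and 1888.

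Dividing a gene's count by its TPM gives, relative to other genes of the tumor, the transcript length that the quantifier assigned to it, though the ratio also changed in genes with a single annotated transcript, as the values that follow show. The measure was added after the files had been seen. Of 32 genes with at least 10 counts in every tumor, 6 had a higher ratio at 2 h (HNRNPA0, HNRNPA2B1, HNRNPDL, HNRNPH3, SRSF5 and SRSF7) and 0 a lower one, against 6.03% and 4.1% of 13358 genes. At 8 h 8 were higher (HNRNPA0, HNRNPA2B1, HNRNPDL, HNRNPF, HNRNPH3, SRSF7, SRSF9 and SRSF11) and HNRNPUL1 was lower, against 10.3% and 8.85%. At 4, 24 and 48 h 0 passed in limma (0%, 0.00749% and 0% of all genes were higher, and 1, 9 and 0 of the 32 had an unadjusted p under 0.05). With the GC trend removed the higher counts were 0 at 2 h and 4 at 8 h, with 3 lower at 8 h.

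For HNRNPDL the ratio was higher at both times. It was, scaled to the vehicle mean, between 0.98 and 1.02 in vehicle tumors, 1.120, 1.211, 1.202 and 1.184 at 2 h and 1.151, 1.125, 1.301 and 1.180 at 8 h. The change at 8 h was 0.25 (SE 0.06, adjusted p = 0.012) on the log2 scale, beside a count change of -0.28, and at 2 h 0.24 (SE 0.06, adjusted p = 0.032) beside -0.05. SRSF11 rose in counts and in the ratio at 8 h (0.27, SE 0.08, adjusted p = 0.031), where the tumors read 1.132, 1.217, 1.283 and 1.204 against 1.040, 1.032, 0.915 and 1.019 in vehicle. HNRNPUL1 went the other way at 8 h, with 0.800, 0.774, 0.842 and 0.819 against 1.030, 1.072, 0.913 and 0.991 and a change of -0.31 (SE 0.07, adjusted p = 0.01). Genes with 1 annotated transcript, which have no isoforms to switch, were also called in 19.9% (2 h) and 26.1% (8 h) of 1253 cases, with the middle 90% of their changes between -0.11 and 0.17 and between -0.08 and 0.18, and HNRNPA0 is one of them. The ratio changes of HNRNPDL, HNRNPA2B1, HNRNPH3, SRSF7 and SRSF11 at 8 h lay above that range, and those of HNRNPA0, HNRNPF and SRSF9 inside it. Without 8 h tumor 3, 2 genes were higher at 8 h, and without vehicle tumors 1, 2 or 3 or 2 h tumors 2, 3 or 4 the 2 h count was 0, with 3 without vehicle tumor 4 or 2 h tumor 1. The 8 h count was 5 without vehicle tumors 1 or 2 or 8 h tumor 4, and without 24 h tumor 3 the ratio was higher in 4 genes and lower in 1 at 24 h.

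**Figure D4:**
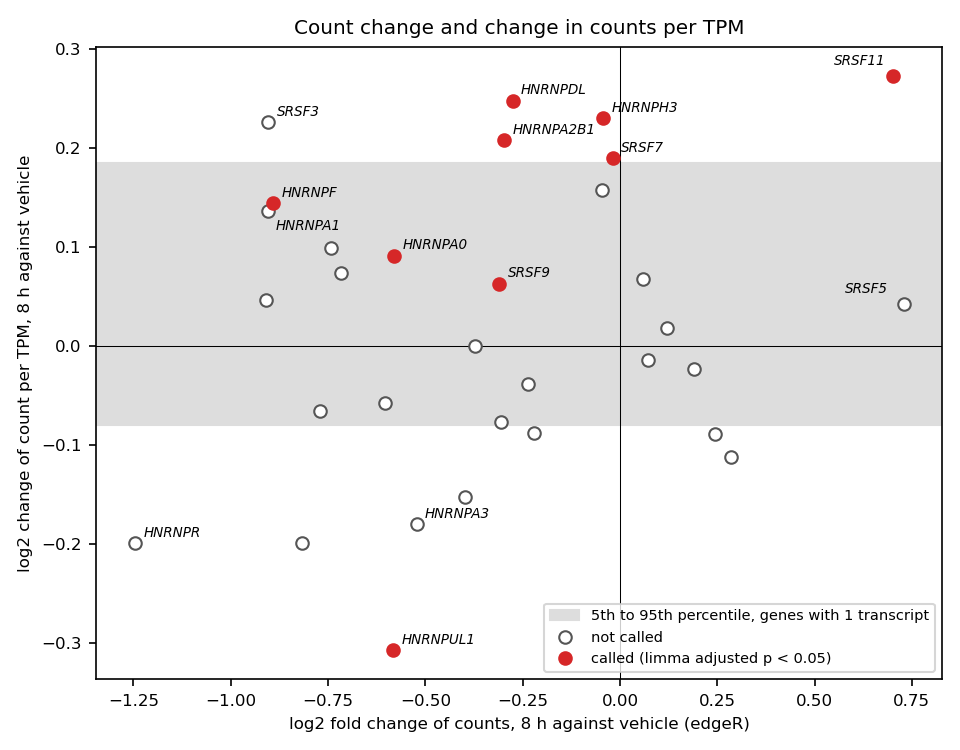
Each point is 1 of 32 genes at 8 h: the x axis is the log2 fold change of counts and the y axis the log2 change of counts per TPM, with called genes filled. The gray band holds the middle 90% of genes with 1 transcript (-0.08 to 0.18), and of the called genes HNRNPDL, HNRNPA2B1, HNRNPH3, SRSF7 and SRSF11 lie above it, as does SRSF3, which was not called.

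The other genes of splicing were followed by lists. The shares of all genes that fell and rose, for comparison, were 23.7% and 20.6% at 8 h and 13.6% and 13.4% at 2 h. They were 8.39% and 6.74% at 4 h, 13.8% and 13.7% at 24 h, and 4.46% and 5.52% at 48 h. Of 68 core spliceosome and snRNP genes, 34 fell and 4 rose at 8 h, with a median of -0.32 beside 0.07 for all genes, and the fallen and risen counts of the other times were 18 and 2 (2 h), 3 and 0 (4 h), 27 and 2 (24 h), and 9 and 0 (48 h). SF3A3, a subunit of the U2 snRNP, fell (-1.09, adjusted p = 1.1e-05), PRPF39 rose by 0.65 (adjusted p = 0.0017), and SF3B1, the most abundant gene not called, was at 0.17 (adjusted p = 0.38). Of 45 tested regulators outside the 2 families 18 fell and 9 rose at 8 h, the latter near the share of all genes. RBM3, a cold-induced RNA-binding protein, fell (-0.94, adjusted p = 1.6e-05), and TIA1, which promotes use of weak 5' splice sites, rose by 0.77 (adjusted p = 9.6e-04).

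Genes that act on SR proteins moved in both directions. Of 14 kinases, phosphatases and import factors of SR proteins 7 rose and 4 fell at 8 h (median 0.43), against 20.6% and 23.7% of all genes, and 4 rose and 3 fell at 2 h, against 13.4% and 13.6%. SRPK1, the kinase that loads SR proteins for nuclear import, fell (-1.14, adjusted p = 3.6e-06), from 74.3 ± 2.80 to 33.6 ± 4.27 CPM (SD, n = 4). DYRK1B rose by 1.36 (adjusted p = 4.2e-06), and CLK1, a nuclear SR kinase, was at 0.37 (adjusted p = 0.25). Of 22 SR-related coactivators 9 rose and 5 fell, among them SRRM2, a scaffold of nuclear speckles, at 1.03 (adjusted p = 5.4e-05) and BCLAF1 at -0.82 (adjusted p = 6.7e-05), with SON at -0.12 (adjusted p = 0.56). Of 15 exon junction and nonsense-mediated decay genes 2 rose and 7 fell, among them UPF3B at 0.95 (adjusted p = 4.2e-04) and RBM8A at -0.80 (adjusted p = 1.7e-04), and SMG1 was at -0.22 (adjusted p = 0.27).

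**Figure D5:**
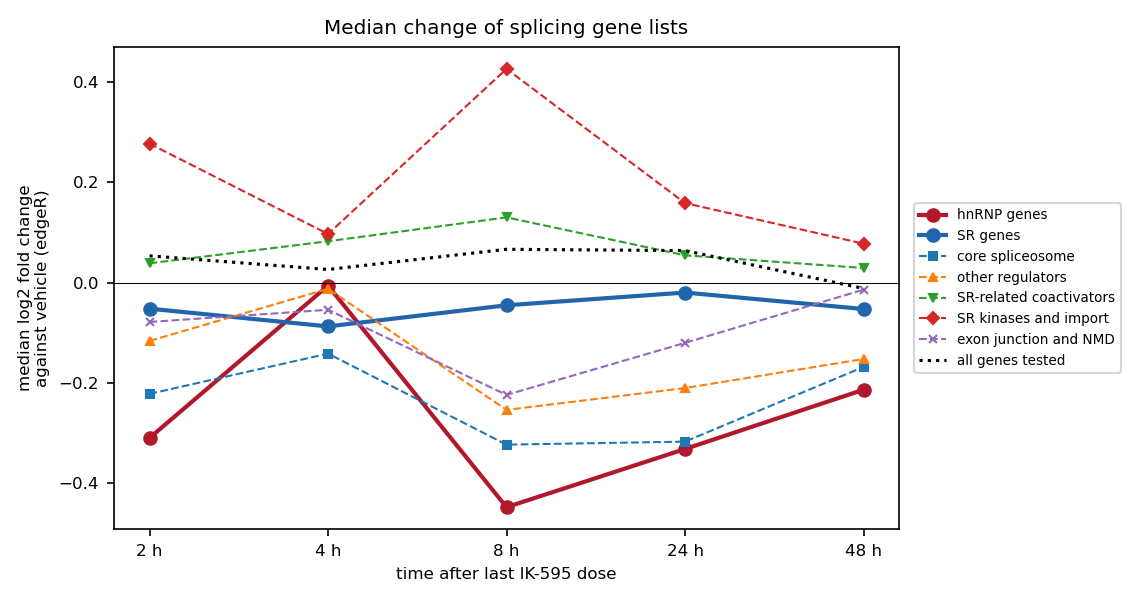
Median log2 fold change against vehicle (y axis, edgeR on counts) at each time (x axis) for the hnRNP genes, the SR genes, 5 other splicing lists and all 18242 genes tested. The hnRNP median was -0.45 at 8 h and -0.01 at 4 h, and that of SR kinases and import factors 0.43 at 8 h.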

How the data were processed

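RNA-seq of 24 tumors was used, 4 in each of 6 groups taken from the sample titles. The values were deposited by the authors as estimated counts per gene and as TPM. Per the submitters' processing notes, bcl2fastq 2.17, FastQC 0.12.1 and Salmon 0.14.1 were used with GRCh38 p13. Per the labels' protocols, poly(A) RNA was sequenced in read pairs. On the annotation behind the tables, the strand setting, any GC correction and the treatment of mouse reads, nothing is given in the sources used here. Coordinates and transcript sequences came from GENCODE release 29 (GRCh38), and the printed gene symbols from a separate list of gene names. A gene was followed if its symbol in either source matched the rule. GC content was pooled over all annotated transcripts of a gene, so exons shared by several transcripts counted once for each. Counts were rounded to whole numbers and tested with edgeR 4.0.16 in R 4.3.3 (quasi-likelihood, TMM scaling, filterByExpr, 1 fit of all 24 tumors), with Benjamini-Hochberg adjustment over 18242 genes. CPM values use TMM-scaled library sizes. TPM was tested with limma 3.58.1 on log2(TPM + 1), as was the log2 ratio of counts to TPM, centred within each tumor, over genes with at least 10 counts in every tumor. DESeq2 1.42.0, other scalings and filters, removal of the GC trend (lowess, span 0.3), a fibroblast covariate and omission of tumors were alternatives. The scripts were tested on simulated data.

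Each tumor came from its own animal per the labels, so p-values measure the spread between animals. Genes described in full were the 4 with the highest vehicle TPM, the 2 largest called rises and falls at each time among genes with a mean of at least 3 log2 CPM, and their paralogs; in each list, the called gene of smallest adjusted p in each direction at 8 h and the most expressed gene not called, of which 1 is not reported here. The genes and lists were chosen with earlier results of these data known.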

Additional observations from a re-analysis of the deposited data

Results flagged for a closer look

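In 20 of the 198 sets of 4 tumors (33 genes in 6 groups, 10.1%), 1 tumor stood apart from the other 3 by Dixon's criterion, where chance gives about 1 in 20. In 8 h tumor 3, which had the highest mitochondrial share of its group, HNRNPR (41.2 CPM), HNRNPH2 (46.0) and SRSF3 (121) were low and HNRNPH3 (199) was high. In 24 h tumor 1 SRSF6 (502 CPM) and SRSF7 (249) were high and HNRNPUL2 (173) was low. In 2 h tumor 1, with high muscle and fibroblast markers, HNRNPA3 (515 CPM), HNRNPDL (283) and HNRNPF (274) were high. The part of these markers and shares was not tested gene by gene.

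Single genes stood apart elsewhere: HNRNPU at 687 CPM in 4 h tumor 2, HNRNPAB at 306 in 24 h tumor 3, and HNRNPD at 247 in 2 h tumor 4, 202 in 8 h tumor 1 and 163 in 48 h tumor 2. HNRNPH3 stood at 199 CPM in 2 h tumor 4 and SRSF4 at 139 in 8 h tumor 1. Among vehicle tumors HNRNPA0 stood at 122 CPM in tumor 2, HNRNPUL1 at 145 in tumor 3, and HNRNPA1L2 at 0 in tumor 3.

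Tests between consecutive treated groups called 5, 14, 0 and 1 of the 33 genes in time order, 20 calls in total. Over all genes 15.9%, 27.1%, 6.89% and 4.07% were called at these steps. Of the calls 0, 6 and 0 held in every fit that left out 1 tumor (2 to 4 h, 4 to 8 h and 24 to 48 h). From 2 h to 4 h the log2 difference was 0.88 for HNRNPR, 0.78 for HNRNPM, 0.73 for HNRNPH2, 0.54 for SRSF1 and 0.47 for SRSF3. From 4 h to 8 h it was -1.22 for HNRNPR, -1.07 for HNRNPH2, -0.78 for HNRNPM, -0.78 for HNRNPK and -0.71 for HNRNPLL. Smaller steps were -0.67 for HNRNPF, -0.62 for HNRNPA3, -0.51 for HNRNPA1, -0.47 for HNRNPC, -0.45 for HNRNPUL1 and -0.30 for HNRNPU. For SR genes that step was -0.76 for SRSF3, -0.69 for SRSF1 and 0.58 for SRSF11, and from 24 h to 48 h SRSF6 differed by -0.47.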

How the results depend on the processing

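No gene's call changed direction under any alternative. Calls that held under each of the 14 other settings and the 8 fits without 1 tumor were HNRNPA1, HNRNPR and SRSF3 at 2 h, those 3 with HNRNPC, HNRNPF, HNRNPH2, HNRNPK and SRSF1 at 8 h, and HNRNPA1, HNRNPC and SRSF3 at 24 h. Counts that moved by over 1.5 times follow, and their causes were not tested. Counts over all genes also moved under several of these settings, as given above. On TPM, with 1 or 0.1 added, risen genes numbered 0 at 2 and 8 h and 1 at 24 h, fallen genes 0 at 4 h, 5 at 24 h and 0 at 48 h, and 0 rose from 4 to 8 h. Without the TPM filter they also numbered 3 fallen at 24 h, 0 risen from 2 to 4 h and 0 fallen from 24 to 48 h. On TPM rescaled without mitochondrial genes, 1 rose at 2 h, 5 rose at 8 h, 3 fell at 24 h, 0 fell at 48 h and 0 rose from 4 to 8 h. The members' median on TPM was -0.39 at 2 h, -0.56 at 8 h and -0.35 at 24 h, against -0.13, -0.31 and -0.21 on counts, and between times 0.40 (2 to 4 h), -0.58 (4 to 8 h, and -0.11 with the GC trend removed) and 0.26 (8 to 24 h). Without a count filter 1 rose at 2 h and 0 at 24 h, 1 fell at 48 h and 0 fell from 24 to 48 h. With only the 2 groups compared, 4 rose at 2 h, 4 at 8 h and 1 at 24 h, 0 fell at 4 h, 6 fell at 48 h, 3 rose from 2 to 4 h, 7 fell from 4 to 8 h and 0 from 24 to 48 h. With the GC trend removed, 4 rose and 11 fell at 8 h, 1 fell at 48 h, 2 rose and 1 fell from 2 to 4 h, 4 rose from 4 to 8 h, and 1 rose and 0 fell from 24 to 48 h; the count-per-TPM ratio was higher in 0 genes at 2 h and 4 at 8 h and lower in 3 at 8 h. Without 4 h tumor 2 and 24 h tumor 1, chosen after seeing the data, 4 rose and 14 fell at 2 h, 3 fell at 4 h, 4 rose at 8 h, 5 fell at 48 h, 2 rose and 3 fell from 2 to 4 h, 5 rose and 8 fell from 4 to 8 h, 4 rose and 1 fell from 8 to 24 h, 0 fell from 24 to 48 h, and the ratio was lower in 3 genes at 8 h. With fibroblast markers as a covariate 14 fell at 2 h, 6 at 4 h and 17 at 24 h, 0 rose from 2 to 4 h, 2 from 4 to 8 h, 1 from 8 to 24 h and 8 from 24 to 48 h. DESeq2 gave 2 risen from 24 to 48 h, and its scaling in edgeR 0 fallen there.

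Same-numbered tumors do not share an animal, and the numbers did not pair them: 20 of 60 pairs correlated above 0.1 (mean r -0.01) and 5 of 24 tumors correlated best with their own number. A replicate block gave 2 risen from 2 to 4 h and 0 fallen from 24 to 48 h, and moved no other count by over 1.5 times.

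Leaving out each tumor in turn, fallen genes numbered 4 to 9 at 2 h, 0 to 1 at 4 h, 12 to 16 at 8 h, 3 to 11 at 24 h and 1 to 2 at 48 h. Risen genes numbered 1 to 2 at 2 h, 0 at 4 h, 2 at 8 h, 0 to 4 at 24 h and 0 at 48 h. Between times, 0 to 9 rose from 2 to 4 h, 6 to 15 fell and 0 to 2 rose from 4 to 8 h, 0 to 3 rose from 8 to 24 h, and 0 to 3 rose and 0 to 2 fell from 24 to 48 h. Genes that changed over the 6 groups numbered 12 to 19 (17 with all tumors). The ratio was higher in 0 to 3 genes at 2 h, 2 to 8 at 8 h and 0 to 4 at 24 h, and lower in 1 at 8 h and 0 to 1 at 24 h. The 4 h fallen count was 0 without vehicle tumor 1, and that of 48 h was 1 without vehicle tumors 1 or 4 or 48 h tumors 2 or 4. SRSF12 and the HNRNPCL genes had too few counts to test, and HNRNPA1L2 and HNRNPA1L3 had SEs of 0.60 or more.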
